A study of Arabidopsis thaliana with 10 samples.

Results

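Dark-grown Arabidopsis thaliana seedlings that lack 4 PHYTOCHROME INTERACTING FACTORs, the pifq mutant, were compared with wild-type Col-0 seedlings across the whole transcriptome. All genes with an RPKM of at least 1 in either genotype were kept, 17963 of the 33559 identifiers measured. RPKM is the number of reads per kilobase of gene, scaled to the depth of the library. The gene nearest to the limit on the inside, AT4G15450, had 1.001 RPKM in Col-0 against 0.816 in pifq, and the one nearest on the outside, AT1G68862, had 0.588 and 0.9996.

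The study measured polyadenylated RNA from etiolated seedlings harvested without their roots, with 2 biological replicates in each of 5 genotypes. After 3 days of imbibition at 4 °C and 3 to 6 hours of light to start germination, the seedlings were kept in darkness for 3 days at 22 °C. All genotypes were in the Col-0 background. Col-0 is the wild type, and pifq carries mutations in PIF1, PIF3, PIF4 and PIF5. EIN3 and EIL1 are transcription factors through which ethylene acts on gene expression; ein3 eil1 carries mutations in both, and the last genotype used, pifq ein3 eil1, joins them to the PIF mutations. The hls1 genotype shares the Col-0 samples and enters no comparison here. Which alleles make up pifq, and which part of each gene they change, is not given in the sources used here.

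PIFs are basic helix-loop-helix (bHLH) transcription factors that accumulate in darkness and are degraded after light activates the phytochromes. In the dark they hold the seedling in its etiolated form, with a long hypocotyl, closed cotyledons and plastids that have not yet become chloroplasts. Seedlings without these PIFs open and prepare for greening even in darkness, and the comparison asks which transcripts go with that state. PIFs bind the G-box, CACGTG, and the related PBE-box, CACATG.

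The deposited table gives 1 value per gene and genotype, which was taken as the authors' mean of the 2 samples. How far replicates lay apart can thus not be seen, no difference below could be tested, and a difference is described by its size. A gene is called higher or lower when log2(RPKM + 1) differed by at least 1, a factor of 2 in RPKM + 1, and this is the size rule used throughout. The values are taken to belong to the gene identifiers beside them, which is an assumption, since the table's own descriptions often name something else: among 21 light-harvesting identifiers, 3 had a description of such a protein. Depth is unknown, so no counting interval can be given. Summed RPKM came to 862572 in Col-0 and 912075 in pifq. Ribosomal RNA identifiers made up 4.27% of that sum in Col-0 and 1.28% in pifq, and plastid-encoded identifiers 2.72% and 2.61%. In these bulk samples, fewer cells of a type and less RNA per cell cannot be told apart.

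In all, 629 genes were higher in pifq, 3.5% of the 17963 compared, and 1156 were lower, 6.44%. Counts in the gene lists below are to be read next to these shares. The median difference over all genes was -0.05, and the middle 50% of genes lay between -0.35 and 0.26. Large differences were more often downward: 263 genes were lower by at least 2 on this scale and 92 were higher, and at a limit of 4 there were 21 lower and 6 higher genes. The higher genes had a median of 3.69 RPKM in Col-0 and 13.02 in pifq. The lower genes had a median of 13.6 RPKM in Col-0 and 3.39 in pifq.

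**Figure D1:**
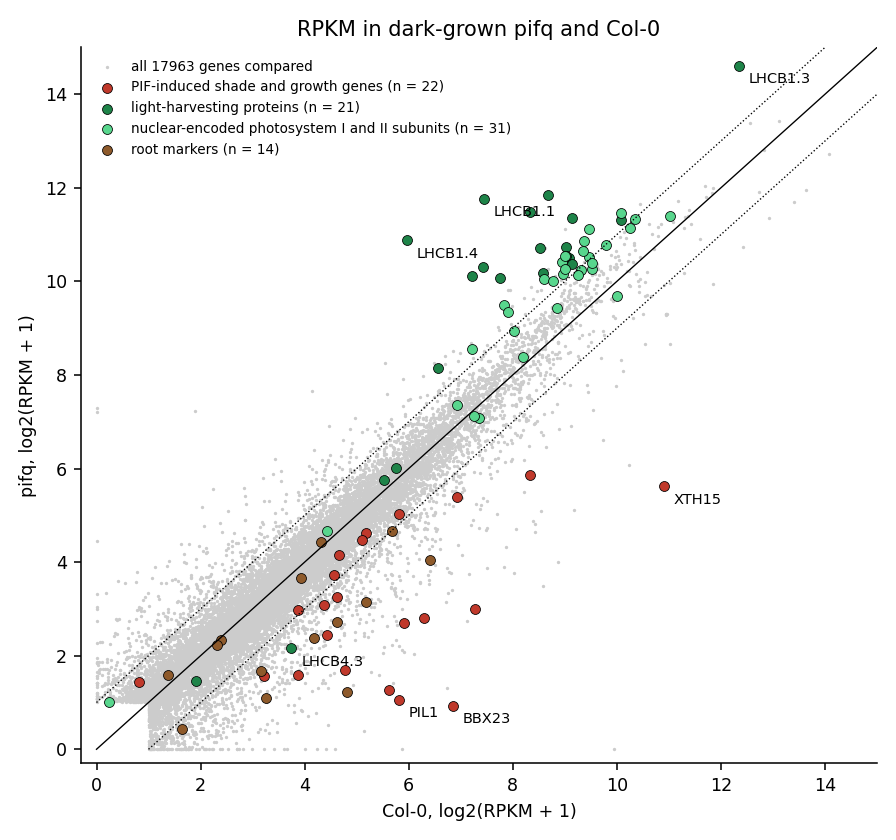
Level of every compared gene in Col-0 (horizontal axis) and pifq (vertical axis), both as log2(RPKM + 1), each point being the authors' mean of 2 samples. The solid line marks equal levels and the dotted lines the size rule of 1; light-harvesting genes (dark green) lie mostly above the upper dotted line, with LHCB4.3 below the lower one, and 15 of the 22 PIF-induced genes (red) lie below it.

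The mutated genes were read first, as a check of the labels. PIF3 (AT1G09530) had 35.1 RPKM in Col-0 and 5.61 in pifq, 6.26-fold less. PIF5 (AT3G59060) had 4.34 and 1.60 RPKM, a difference of -1.04 that fell just short of the size rule after median-of-ratios scaling (-0.98). PIF1 had 19.0 and 18.2 RPKM. PIF4 had 4.36 RPKM in Col-0 and 8.69 in pifq. So the transcript of PIF3 and, by a narrow margin, that of PIF5 were lower in the labelled mutant, while those of PIF1 and PIF4 were not. PIF7, a further member of the family, went from 0.172 to 1.68 RPKM and was the only one of 20 compared genes in the list of other PIFs and related bHLH genes to be higher.

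The 35 gene lists were chosen with earlier results of these data known, so their ranks are a description and no test. Genes that PIFs are known to induce, in shade or in darkness, had the lowest median among them. Of 22 such genes compared, 15 were lower, none was higher, and the median difference was -1.82. BBX23, a B-box transcription factor gene, had 114 RPKM in Col-0 and 0.909 in pifq, a difference of -5.91. XTH15, which encodes a cell wall enzyme that cuts and rejoins xyloglucan, had 1922 and 48.2 RPKM. PIL1, a bHLH gene used as a marker of the shade response, had 54.9 and 1.08 RPKM. These 3 genes were 39.9-fold to 126-fold lower in pifq, and BBX23 was left at under 1 RPKM.

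Transcription factors made up much of that list. HFR1, an atypical bHLH protein that binds PIFs and blocks them, had 48.0 RPKM in Col-0 and 1.42 in pifq. ATHB2, a homeodomain-leucine zipper factor of the shade response, had 77.7 and 5.95 RPKM. HB52, another homeodomain-leucine zipper gene, had 154 and 6.93 RPKM. The relatives HAT1, HAT2 and HAT3 of ATHB2 had smaller differences, from -0.84 to -0.51, and did not reach the size rule, whereas HB4 did at -1.66. Among hormone-related members, ST2A, a sulfotransferase that inactivates a jasmonate, had 58.7 and 5.45 RPKM. CKX5, which degrades cytokinin, had 13.6 and 2.0 RPKM. YUC8, an auxin synthesis gene, had 13.6 and 6.87 RPKM, below the size rule. YUC9 was the 1 member of the 22 with a value above Col-0, at 0.750 and 1.72 RPKM.

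Helix-loop-helix proteins without a normal DNA-binding region, which tune the activity of growth-promoting bHLH factors, were lower among those known to promote growth and among those known to restrain it. PRE1, PRE5 and PRE6, which promote elongation, had differences of -1.37, -1.99 and -1.35, whereas PRE2 had 0.77. IBH1, which restrains it, had 57.5 RPKM in Col-0 and 6.99 in pifq. PAR1 and PAR2, which restrain the shade response, had differences of -1.53 and -1.73. Of the 20 other PIF and related bHLH genes compared, 10 were lower and 1, PIF7, was higher. Among the lower genes, PIL1, HFR1, PAR1, PRE1 and PRE5 are also in the PIF-induced list, so the 2 counts overlap. PIL2 and BEE3 completed the 10 lower genes, at -2.29 and -1.15. HEC1, HEC2, SPT, ALC and the remaining compared members lay within the size rule.

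Sequence upstream of 6 of the named genes is shown because it holds the G-box letters that PIFs are known to bind. The sequences come from the TAIR10.1 genome with the RefSeq annotation, run 5′ to 3′ on the strand of the gene, and end before its annotated start. Capitals mark CACGTG. FHL, CKX5, IAA19 and ELIP1 were lower in pifq, and LHCA4 and LHCB4.1 were higher.
FHL, chr5:437179-437298, plus strand: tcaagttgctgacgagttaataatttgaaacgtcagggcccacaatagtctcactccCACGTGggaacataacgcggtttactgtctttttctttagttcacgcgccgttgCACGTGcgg
CKX5, chr1:28318973-28319092, minus strand: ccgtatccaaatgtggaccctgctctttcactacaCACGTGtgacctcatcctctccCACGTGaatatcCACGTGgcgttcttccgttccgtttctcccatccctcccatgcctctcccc
IAA19, chr3:5263874-5263993, plus strand: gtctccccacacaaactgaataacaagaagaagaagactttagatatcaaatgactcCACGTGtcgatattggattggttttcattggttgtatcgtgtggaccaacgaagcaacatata
ELIP1, chr3:8085673-8085792, minus strand: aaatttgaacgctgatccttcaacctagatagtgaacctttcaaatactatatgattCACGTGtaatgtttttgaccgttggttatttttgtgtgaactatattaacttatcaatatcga
LHCA4, chr3:17495059-17495178, minus strand: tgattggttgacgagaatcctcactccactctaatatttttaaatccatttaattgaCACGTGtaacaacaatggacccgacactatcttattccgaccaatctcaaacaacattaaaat
LHCB4.1, chr5:208735-208854, plus strand: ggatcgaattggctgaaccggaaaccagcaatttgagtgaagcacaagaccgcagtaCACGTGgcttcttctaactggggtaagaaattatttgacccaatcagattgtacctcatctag

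CKX5 held 4 G-boxes within 1000 bases before its start, of which 3 fall in the printed stretch, and FHL held 3, of which 2 do. In contrast, PIL1, ATHB2, XTH15, IAA29 and BBX23 had neither motif in those 1000 bases. Across the 300 bases before the start, CACGTG on either strand occurred in 7.92% of the 17801 compared genes with such a window, in 8.91% of 606 higher genes and in 7.86% of 1133 lower genes. CACATG on either strand occurred in 12.9% of all, 14.9% of higher and 19.2% of lower genes. So G-box letters were about as frequent in either set as in all genes, and PBE-box letters were more frequent among the lower genes. Base composition was not matched between the sets. In the 1000-base windows the shares for CACGTG were 15.9% of all, 17.2% of higher and 18.0% of lower genes, and those for CACATG were 38.1%, 40.8% and 47.4%. These matches describe letters in a window and do not mark bound sites.

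**Figure D2:**
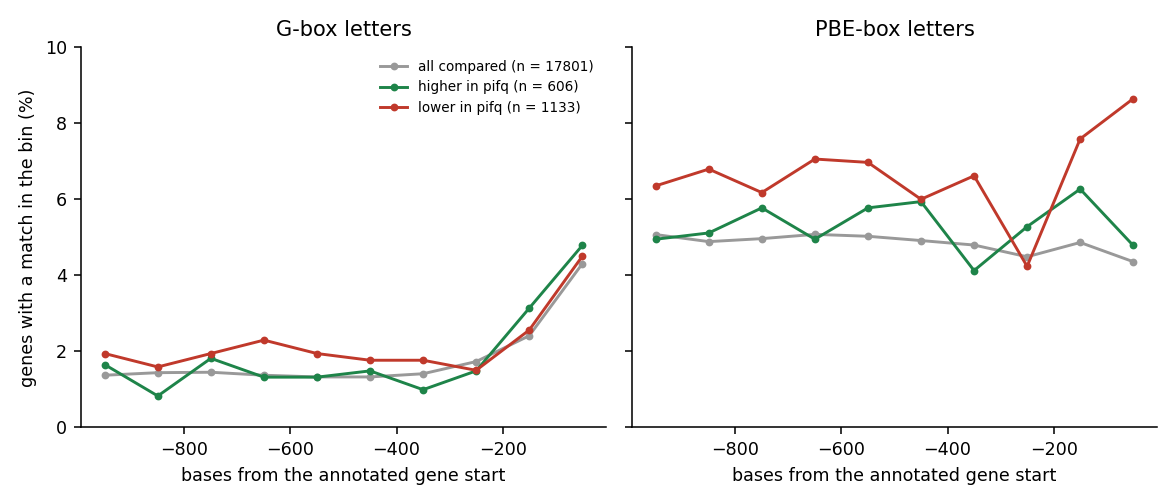
Share of genes with G-box letters (left) or PBE-box letters (right) in each 100-base bin of the 1000 bases before the annotated gene start, for all compared genes and for those higher or lower in pifq. G-box letters are most frequent in the last bin, at 4.3% of all, 4.79% of higher and 4.5% of lower genes, where PBE-box letters stand at 8.65% of lower genes and 4.36% of all.

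Of the gene lists, chosen with earlier results of these data known, light-harvesting genes had the highest median. Of 21 genes for light-harvesting proteins, the chlorophyll-binding antenna of the photosystems, 17 were higher, 1 was lower and the median difference was 1.70. Quantile normalization left 15 of them higher. Their summed RPKM was 11455 in Col-0 and 54620 in pifq. LHCB1.4 had 61.3 RPKM in Col-0 and 1875 in pifq, a difference of 4.91. LHCB1.1 had 173 and 3468 RPKM, a difference of 4.32. LHCB1.3 had 5221 RPKM in Col-0 already and 24893 in pifq. The LHCB1 genes are near-identical copies, so the split of reads among them is uncertain.

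The antenna of photosystem I moved with that of photosystem II. LHCA1 went from 171 to 1267 RPKM, LHCA4 from 368 to 1685, LHCA3 from 538 to 1455 and LHCA2 from 562 to 1326. LHCB3, LHCB5 and LHCB6, which make up the trimers and inner antenna of photosystem II, had 563, 1081 and 522 RPKM in Col-0 and 2605, 2531 and 1694 in pifq. Rare antenna genes did not follow: LHCA5 had 45.3 and 52.9 RPKM and LHCA6 had 53.0 and 63.2. LHCB4.3 was the single lower member, at 12.4 and 3.47 RPKM, while its relatives LHCB4.1 and LHCB4.2 had differences of 1.53 and 1.61.

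Genes listed for the photosystems themselves, subunits along with some assembly and membrane proteins, had smaller median differences in the same direction. Of 13 compared photosystem I genes of the nucleus 9 were higher, none was lower, and the median was 1.25; quantile normalization left 6 higher. PSAF had 710 RPKM in Col-0 against 2235 in pifq, and PSAD-2 had 225 and 725. The remaining 4, CURT1B, PSAH-1, PSAK and PSAE-1, had differences from 0.59 to just under 1. Of 18 photosystem II genes 5 were higher, with a median of 0.82: PSBY, PSBTN, PSBQ-2, PSBO2 and PSBW. PSBS, a protein that sheds excess light energy as heat, had 1020 RPKM in Col-0 and 826 in pifq. Among 14 genes for electron carriers and the plastid ATP synthase, PETE1 (a plastocyanin), ATPD and FD2 were higher, and the median was 0.60; quantile normalization took ATPD to 0.98, under the size rule.

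Carbon fixation genes differed little. Of 20 Calvin cycle genes, GAPA-2 was higher, at 189 and 382 RPKM, and fell under the size rule after quantile normalization. CP12-2, a regulator of the cycle, was lower at 47.5 and 17.9 RPKM. The median of the 20 was 0.40. Rubisco small subunit genes were divided: RBCS1A had 8833 RPKM in Col-0 against 11028 in pifq, and RBCS2B had 3099 and 1927. None of 11 photorespiration genes reached the size rule, with values between -0.18 for GDCH and 0.63 for PGLP1. None of 20 carotenoid and plastid isoprenoid precursor genes did either, where PSY, the first committed step of carotenoid synthesis, had 78.8 and 110 RPKM.

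Most genes of the tetrapyrrole list, which holds the chlorophyll synthesis genes, lay within the size rule, but they leaned upward. Of 32 genes 5 were higher, 15.6% next to 3.5% of all genes. Only 1 was lower, 3.1% next to 6.44%. The median was 0.47, and 26 of the 32 lay above Col-0. GUN4, which stimulates magnesium chelatase, had 147 RPKM in Col-0 and 374 in pifq. CRD1, part of the enzyme that closes the isocyclic ring, had 450 and 1112 RPKM. HEMA1, which controls entry into the pathway, had 109 and 244 RPKM. CAO, which makes chlorophyll b, and HEME1 had differences of 1.2 and 1.04. PORA, the protochlorophyllide oxidoreductase of etiolated tissue, was lower: 2089 RPKM in Col-0 and 403 in pifq. PORB had 1481 and 829 RPKM, a difference of -0.84, and PORC had 39.8 and 64.2.

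Early light-induced proteins, relatives of the antenna that are known for protecting plastids as they green, were low in pifq. ELIP1 had 381 RPKM in Col-0 against 10.3 in pifq, and ELIP2 had 469 and 14.9. SEP2 was lower too, at 31.7 and 14.1 RPKM. The other 6 of the 9 genes, among them both LIL3 genes, OHP and OHP2, lay between -0.34 and 0.39. ELIP1 and ELIP2 therefore stood 37.1-fold and 31.4-fold lower in the genotype in which antenna genes were high.

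Regulators of greening and light signalling did not move as a block. HY5 and HYH, bZIP factors that promote development in light, had 37.8 and 85.9 RPKM in Col-0 and 8.33 and 19.3 in pifq. None of the 14 greening regulators was higher, and GLK1 and GLK2, which activate photosynthesis genes, had differences of 0.80 and 0.76. FHY1 and FHL, which carry phytochrome A into the nucleus, had differences of -1.97 and -1.29. PHYA had 335 RPKM in Col-0 against 172 in pifq, and PHOT1 had 205 and 106, both just short of the size rule at -0.95. Of 30 light signalling genes 5 were lower and 1, RPT2, which acts in phototropism, was higher at 28.4 and 62.7 RPKM. SPA4, one of the 5, had a difference of -1.01 that fell to -0.95 after median-of-ratios scaling.

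The B-box genes went both ways. Of 24 compared, 5 were lower and 4 were higher. Beside BBX23, BBX17 had 89.7 and 14.4 RPKM, BBX20 had 27.5 and 6.94, BBX28 had 78.9 and 25.4, and BBX29 had 9.98 and 4.2. BBX25 had the largest upward difference on the log2(RPKM + 1) scale, with 3.27 RPKM there and 18.6 in pifq. BBX3 had 11.3 and 38.3, BBX15 had 18.6 and 39.2, and BBX16 had 0.107 and 1.58 RPKM.

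**Figure D3:**
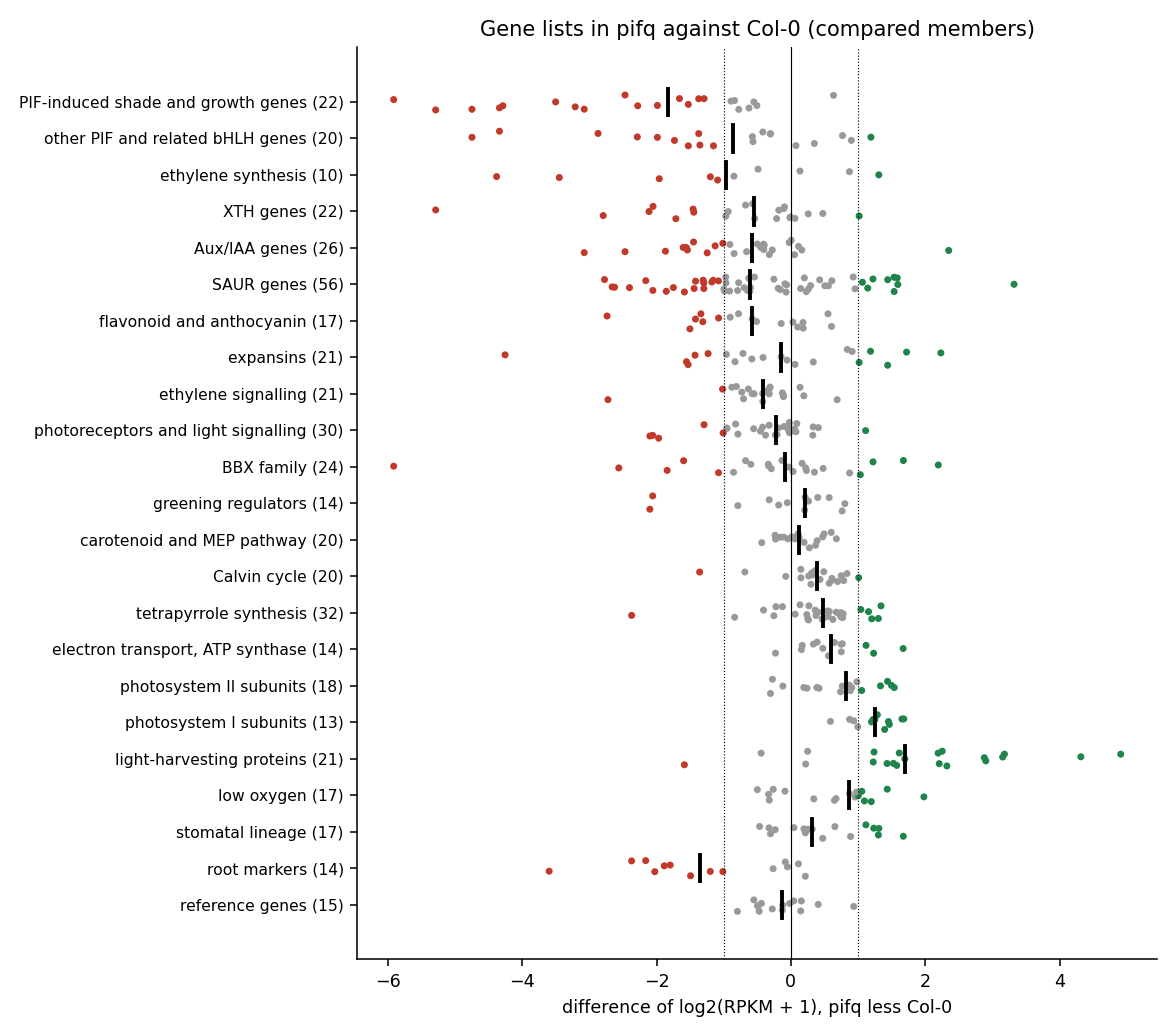
Difference of log2(RPKM + 1), pifq less Col-0, for each compared member of 23 gene lists, with the number compared in brackets. Each dot is a gene, black bars are list medians and dotted lines the size rule of 1; green dots are higher and red dots lower genes. The PIF-induced list has a median of -1.82 and the light-harvesting list 1.70, while the reference genes centre at -0.13.

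Auxin-responsive genes were low more often than high. Of 26 Aux/IAA genes, which encode early-induced repressors of auxin signalling, 10 were lower and 1 was higher. IAA19 had 319 RPKM in Col-0 against 56.8 in pifq, and IAA29 had 26.5 and 2.26. IAA17 had 384 and 104 RPKM, and IAA7 had 431 and 146. The higher member, IAA34, had 0.344 and 5.85 RPKM. IAA4 was the least of the 10, at -1.01, and did not reach the size rule after either scaling.

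The SAUR genes, small auxin-induced genes many of which promote cell elongation, formed opposite groups. Of 56 compared, 17 were lower and 9 were higher. SAUR25 had 82.8 RPKM in Col-0 and 11.2 in pifq, SAUR17 had 73.0 and 11.0, and SAUR22 had 166 and 36.3. SAUR19, SAUR20, SAUR23 and SAUR24 were lower as well, with differences from -2.66 to -1.44, though SAUR19 to SAUR24 are near-identical copies that may share reads. On the other side SAUR78 had 103 and 302 RPKM, SAUR14 had 41.0 and 125, and SAUR3 had 17.3 and 41.6. SAUR57 was listed at 0 in Col-0 and at 9.01 RPKM in pifq. SAUR50, at 155 and 148 RPKM, was among the most abundant and hardly differed.

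Auxin synthesis and transport showed fewer differences. Of 14 synthesis and conjugation genes only GH3.17, which joins auxin to glutamate, was lower, at 18.4 and 8.62 RPKM, a difference of -1.01 that both scalings took under the size rule. The TAA1 aminotransferase gene had 36.5 and 45.2 RPKM. Of 25 transport genes 5 were lower and 1 was higher. The kinase genes WAG1 and WAG2, which act on PIN carriers, had 12.6 and 27.1 RPKM in Col-0 and 2.67 and 8.75 in pifq. PILS5 had 91.6 and 25.3 RPKM, PIN2 had 14.7 and 5.22, and ABCB4 had 42.4 and 18.6. ABCB21 was the higher one, at 2.97 and 7.88 RPKM, and PIN3, the main PIN of the hypocotyl, had 79.2 and 75.4.

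Of 10 ethylene synthesis genes 5 were lower, 4 of them after quantile normalization, and 1 was higher, with a median of -0.97. ACO5, an ACC oxidase of the last step, had 137 RPKM in Col-0 against 5.64 in pifq. ACS5 and ACS8, ACC synthases of the step before, had 17.7 and 3.97 RPKM in Col-0 against 0.716 and 0.278 in pifq, and ACS2 had 2.1 and 0.457. In the opposite direction, ACO4 had 41.6 RPKM in Col-0 and 104 in pifq. The median of 21 ethylene signalling genes was -0.42, and 2 of them were lower. EDF3, an ethylene-responsive transcription factor gene, had 34.2 and 4.33 RPKM. EDF4 had 101 and 49.2 RPKM, and its difference of -1.02 fell under the size rule after either scaling. EIN3 had 84.0 and 57.2 RPKM, and HLS1, needed for the apical hook, had 11.2 and 7.16.

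Gibberellin and brassinosteroid genes mostly lay within the size rule, as did most of all genes, of which 3.5% were higher and 6.44% lower. Higher and lower were 4.76% and 9.52% of the gibberellin list, and 0% and 13.6% of the brassinosteroid list. Of 21 gibberellin genes, GA2OX8, which inactivates gibberellin precursors, had 17.1 RPKM in Col-0 and 2.50 in pifq. GASA1 had 388 and 142 RPKM, and GASA6 was higher at 146 and 409. Of 22 brassinosteroid genes 3 were lower, the synthesis genes ROT3 and BR6OX2 and the inactivation gene CYP72C1, at -1.69, -1.30 and -1.41. Of 32 cytokinin genes 3 were higher, ARR16, CKX4 and ARR15, and 2 were lower, CKX5 and ARR3. ARR16, a type-A response regulator, had 3.07 RPKM in Col-0 and 11.6 in pifq. Of 19 jasmonate genes AOC2, LOX2 and AOC1, which act in synthesis, were higher, and MYC2, the main transcription factor of the response, was lower at 24 and 7.29 RPKM. AOC2 had 0.995 RPKM in Col-0 and 9.11 in pifq.

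Cell wall genes were selected by member. Of 22 XTH genes 7 were lower and 1 was higher. XTH17 had 474 RPKM in Col-0 and 113 in pifq, XTH18 had 182 and 25.3, and XTH31 had 338 and 123, although XTH17 and XTH18 resemble each other closely enough to share reads. XTH4, the most abundant of the family in pifq, had 1497 and 1009 RPKM. XTH6 was the higher one, at 0.755 and 2.55. Of 21 expansin genes, whose products loosen walls, 5 were lower and 5 were higher. EXPA9 had 258 and 12.5 RPKM, and EXPA11 had 251 and 92.6. EXPA1 had 102 and 339 RPKM, and EXPA10 had 17.0 and 83.7. None of 9 cellulose synthase genes reached the size rule; CESA3 and CESA1, of the primary wall, had 175 and 148 RPKM in Col-0 and 127 and 102 in pifq.

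Flavonoid genes were lower where they differed. Of 17 compared 6 were lower and none was higher. MYB75, which switches on anthocyanin synthesis, had 8.67 RPKM in Col-0 and 0.450 in pifq. DFR, LDOX and TT19, of the anthocyanin branch, had 2.13, 2.27 and 3.25 RPKM in Col-0 and 0.104, 0.318 and 0.588 in pifq. F3H had 39.2 and 14.9 RPKM, and MYB11 was listed at 0 in pifq. The entry enzyme TT4 (chalcone synthase) had 312 and 181 RPKM, a difference of -0.78.

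Clock, low-oxygen and stomatal genes were read as further lists. Of 18 clock genes BOA and ELF4 were lower, at -1.38 and -1.08 (ELF4 at -0.97 after quantile normalization), and CCA1 had 34.8 and 63.4 RPKM without reaching the size rule. Of 17 low-oxygen genes 6 were higher and none was lower. HRE2, a transcription factor of the response, had 8.99 RPKM in Col-0 against 38.4 in pifq, and ADH1, alcohol dehydrogenase, had 142 and 386. PDC1, SUS4, RAP2.3 and SUS1 were the other 4. Of 17 genes of the stomatal lineage 5 were higher and none was lower. SPCH, which starts the lineage, had 6.35 and 17.2 RPKM, and POLAR, EPF2, BASL and SCRM2 had differences from 1.12 to 1.67. MUTE, which acts after SPCH, had 2.08 and 1.5 RPKM, and FAMA had 3.74 and 5.58.

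Among genes outside these lists, FLP1, related to the flowering-promoting factor FPF1, had 105 RPKM in Col-0 and 1.49 in pifq. CYP96A5, a cytochrome P450 gene, had 34.3 and 0.312 RPKM. Upward, QQS, a gene that bears on starch content, had 0.330 RPKM in Col-0 and 11.1 in pifq, ECS1 had 3.07 and 35.2, and UGT85A1, a glycosyltransferase gene, had 2.08 and 20.0. ABI4, a transcription factor of abscisic acid and sugar signalling, had 1.17 and 13.98 RPKM. With the 6 light-harvesting genes LHCB1.4, LHCB1.1, LHCB1.5, LHCB1.2, LHCB2.2 and LHCA1, these last 4 had the 10 largest differences upward among genes with a symbol, at least 10 RPKM in one genotype and no listing at 0 in the other.

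Genes used as markers of roots and of seed reserves were read as well. Although roots had been removed, transcripts of genes used as root markers were present. Of 14 such markers compared 9 were lower in pifq and none was higher. In which tissue their transcripts arose was not tested. The median difference of the 14 was -1.35, and the summed RPKM of all 22 markers was 299 in Col-0 and 106 in pifq. Of the 22, 1 was listed at 0 in pifq and none was in Col-0. CASP1, which builds the Casparian strip of the endodermis, had 83.8 RPKM in Col-0 and 15.4 in pifq, TIP2;3 had 27.3 and 1.33, and MYB36 had 7.99 and 2.19. SCR and SHR, which specify the endodermis of root and shoot, had 18.8 and 14.3 RPKM in Col-0 and 20.4 and 11.7 in pifq. The part of any root tissue left in the samples in the lower genes above, such as PIN2, was not tested. Of 7 seed reserve genes compared the oleosin gene OLEO3 was lower, at 107 and 9.12 RPKM, and the malate synthase gene MLS higher, at 391 and 1054. None of 15 reference genes reached the size rule, but they were not level: ACT2 had 725 and 417 RPKM and GAPC2 had 1118 and 2139.

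The same PIF mutations were also present beside wild-type PIF genes in the ein3 eil1 background, and that comparison, pifq ein3 eil1 against ein3 eil1, shares no sample with pifq against Col-0. There 750 of 17834 genes were higher, 4.21%, and 741 were lower, 4.15%. Its median difference was 0.13, and median-of-ratios scaling, which brought the median to 0.00, gave 576 higher and 922 lower genes. Values of single genes in that comparison include this general shift of 0.13. Of the 17446 genes compared in both, 315 were higher in both, 52.2% of the 603 higher in pifq and 45.5% of the 693 higher in the second comparison. Lower in both were 521, 47.8% of 1089 and 75.5% of 690. Opposite calls were made for 34 genes, 20 higher in pifq and lower in the second, and 14 the other way.

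At a limit of 2 in both comparisons, 100 of these 17446 genes were lower in both and 39 were higher in both. At that limit 263 genes were lower and 92 higher in pifq, counted over all 17963 genes compared with Col-0. Among the genes compared in both, 57 were lower by at least 3 in pifq without being listed at 0 in pifq or Col-0. All 57 were also lower by at least 1 in pifq ein3 eil1 than in ein3 eil1. Of the 10 genes higher by as much, 9 were higher by at least 1 there. XTH15 had 1219 RPKM in ein3 eil1 against 36.7 in pifq ein3 eil1. PIL1 had 62.7 and 1.0 RPKM, HFR1 had 56.3 and 0.971, and ELIP1 had 274 and 9.68. The differences of these 4 were -5.02, -4.99, -4.86 and -4.68, next to -5.29, -4.75, -4.34 and -5.08 in pifq against Col-0. All 15 lower members of the PIF-induced list were lower in both comparisons. Among upward genes, ECS1 had 3.13 RPKM in ein3 eil1 against 41.9 with the PIF mutations added. AT5G20790, to which RefSeq gives no symbol, had 2.73 RPKM in Col-0 against 148 in pifq, a difference of 5.32, and 31.8 against 212 in the other background.

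**Figure D4:**
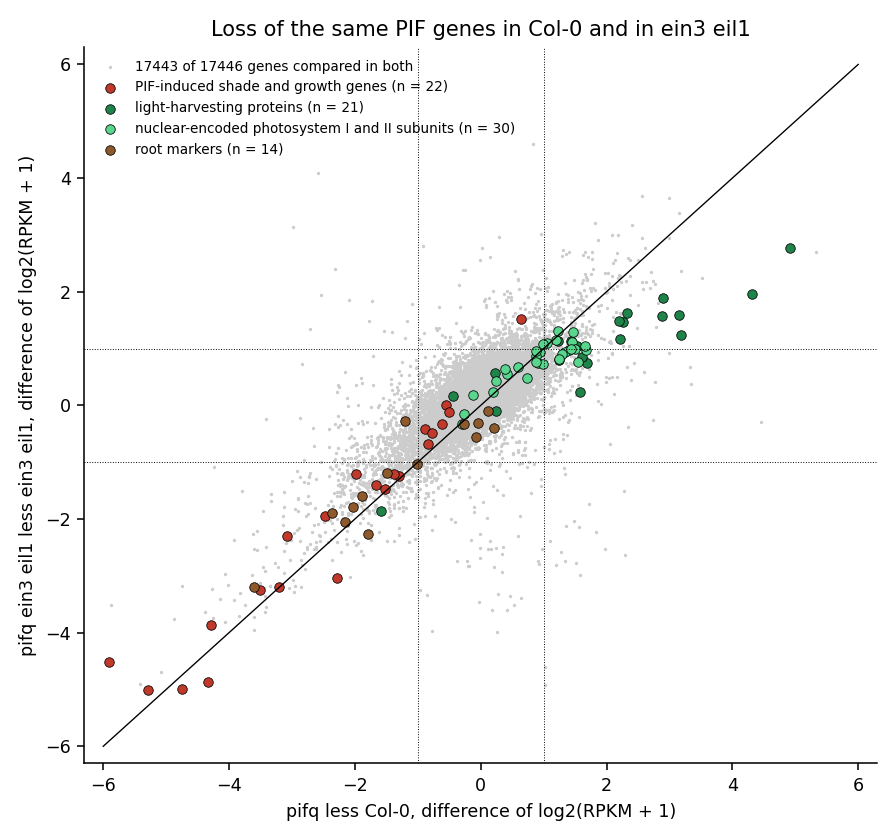
Difference of log2(RPKM + 1) for loss of the PIF genes in the Col-0 background (horizontal) and in the ein3 eil1 background (vertical), for 17443 of the 17446 genes compared in both; 3 genes fall outside the axes. The solid line marks equal differences and dotted lines the size rule of 1; root markers and PIF-induced genes lie near the line, and most light-harvesting genes lie below it at the upper right.

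Light-harvesting genes had smaller differences in the ein3 eil1 background. Of the 17 higher in pifq 13 were higher there, and the median of the 21 was 1.14, next to 1.70. LHCB1.1 had 954 RPKM in ein3 eil1 against 3696 in pifq ein3 eil1, a difference of 1.95, next to 4.32 against Col-0. LHCB1.4 had 341 and 2316 RPKM. Summed over the 21 genes, RPKM was 19965 in ein3 eil1 against 52173 with the PIF mutations added. The summed level without the PIFs was thus close in both backgrounds, 54620 and 52173, and the level with them was 11455 in Col-0 and 19965 in ein3 eil1. These sums lean on LHCB1.3, which alone had 24893 RPKM in pifq and 18629 in pifq ein3 eil1. It had 5221 in Col-0 and 6763 in ein3 eil1. Whether the loss of the PIFs acted differently in the 2 backgrounds could not be tested with 1 mean per genotype.

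**Figure D5:**
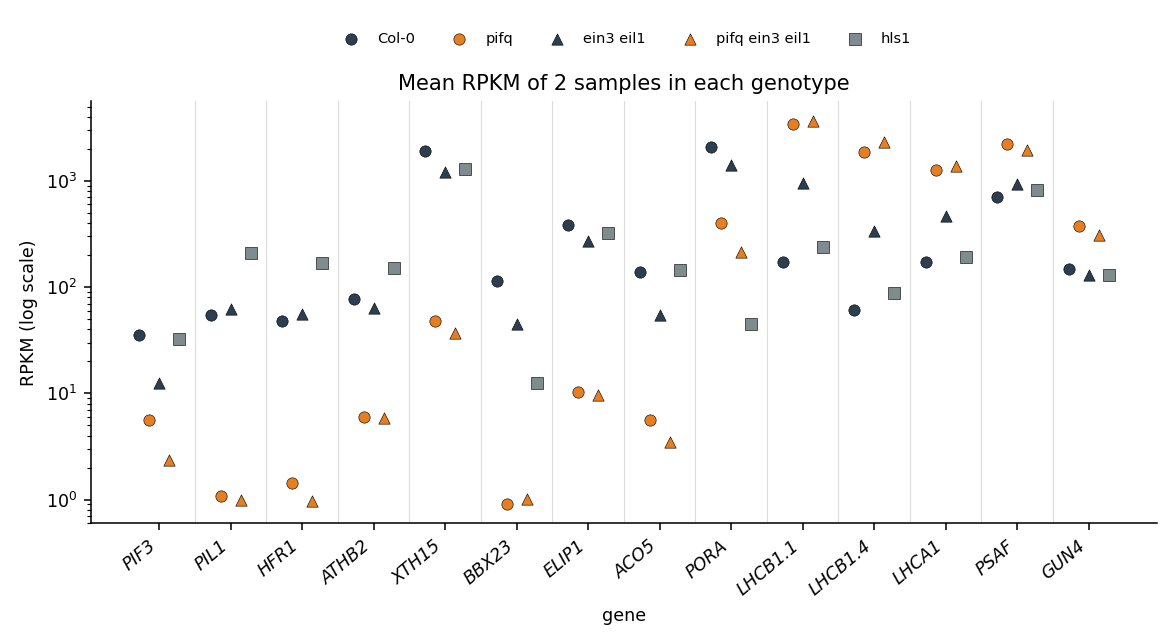
RPKM on a log scale for 14 named genes in each of the 5 genotypes, each point being the authors' mean of 2 samples, with orange points for the genotypes that carry pifq and circles or triangles for the Col-0 or ein3 eil1 background. PIF3, PIL1, HFR1, ATHB2, XTH15, BBX23, ELIP1, ACO5 and PORA lie lower in both pifq genotypes than in their controls, and LHCB1.1, LHCB1.4, LHCA1, PSAF and GUN4 lie higher.

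Further lists are given for both backgrounds, next to the 47.8% of all lower genes that were lower in both. HY5 had 17.0 RPKM in ein3 eil1 against 8.50 in pifq ein3 eil1, and HYH had 46.5 and 30.9, differences of -0.93 and -0.57. Median-of-ratios scaling of that comparison, applied to the lists after the data had been seen, moved HY5 past the size rule, at -1.07, and left HYH short of it, at -0.72. Of the 10 Aux/IAA genes lower in pifq, 4 were lower in the second comparison; IAA3 had 70.5 and 56.8 RPKM, and IAA4 had 73.1 and 78.5. Of the 17 lower SAUR genes 6 were lower in both, or 7 after that scaling, and SAUR20 had 50.3 and 50.5 RPKM. Of the 6 lower flavonoid genes 1, MYB75, was lower in both, at 6.77 and 2.25 RPKM in the second. Among root markers 8 of 9 were lower in both, CASP1 at 69.8 and 18.1 RPKM.

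Among the genes whose differences diverged most between the backgrounds, several were listed at 0 in a genotype. AT5G27889 had 146 RPKM in pifq and 119 in ein3 eil1, and the other genotypes were listed at 0. AT3G41768, annotated as a ribosomal RNA, was listed at 0 in ein3 eil1 alone, against 12733 RPKM in Col-0, 3978 in pifq and 13163 with all mutations joined. MIR834, the gene of a microRNA precursor, had 15 RPKM in Col-0 against 1.67 in pifq, and close to 0 in ein3 eil1 against 16.1 with the PIF mutations added. Of the 34 genes with opposite calls 16 were listed at 0 in at least 1 of the 4 genotypes, and 13 of the 20 higher in pifq and lower in the second comparison were plastid-encoded identifiers. Plastid-encoded identifiers made up 7.05% of summed RPKM in ein3 eil1 against 3.24% in pifq ein3 eil1.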

How the data were processed

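Polyadenylated RNA of dark-grown seedlings was sequenced from directional libraries, per the labels' protocols; the submitters' processing notes name BWA 0.7.7 and TAIR10. How reads were counted, and with which strand setting, is not stated there. RPKM values were computed and deposited by the authors, 1 per gene and genotype. Of values with 7 or more digits, 96.0% in Col-0 and 95.4% in pifq have a final 5, the mark of an average over 2 rounded values. Tests that need values per sample were not run. From the deposited RPKM, differences of log2(RPKM + 1) were computed with a pseudocount of 1, for genes at 1 RPKM or more in either column, and called at 1 or more either way. Fold values are ratios of RPKM.

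The members and the 35 gene lists were chosen with earlier results of these data known, and 9 list symbols were not matched to an identifier. Genes were named by rule: those mutated, the 10 with a symbol, 10 RPKM or more and no listing at 0 that differed most in each direction, up to 6 per list and direction, members that show what a count holds, and the leaders and most divergent of both losses. Symbols came from RefSeq, which held 32817 identifiers. Values were assigned to genes by identifier; the table's description columns, which name another protein for most light-harvesting identifiers, were not used. Promoter windows were read from TAIR10.1. Alternatives were other pseudocounts, filters, scalings and size rules. The calculation was tested on simulated data. Python 3.11.15, pandas 2.3.3 and numpy 2.4.6 were used. The values of 1 list member are not reported here.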

Additional observations from a re-analysis of the deposited data

How the results depend on the processing

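The 629 higher and 1156 lower genes, the 315 and 521 that were so in both losses of the PIF genes, and the 193 members of the gene lists past the size rule stayed within 1.5 times of those counts under quantile normalization, median-of-ratios scaling, pseudocounts of 0.1 and 0.5, a floor of 5 RPKM, and without genes listed at 0. Dropping the filter cannot change a call under this size rule. A size rule of 2 gave 92, 263, 39, 100 and 55. Of 216 named genes, most of them chosen for a difference of 1 or more, median-of-ratios scaling took 6 under the size rule (PIF5, SPA4, GH3.17, IAA4, EDF4 and CASP5) and quantile normalization took the same 6 and LHCA2, LHCB5, PSBW, PSAD-1, PSAN, PSAO, ATPD, GAPA-2, BBX29, SAUR65, ACS2 and ELF4; the cause was not tested. The median of the B-box list changed sign, from -0.08 to 0.01, under quantile normalization. No paired analysis was possible because the table holds 1 mean per genotype, and leaving out a replicate was not run for the same reason. Replicate spread and depth are unknown, and whether any single gene differs beyond that spread cannot be said. Genes at a few RPKM are understated on the log2(RPKM + 1) scale.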

Other observations

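Further families were chosen after their values were seen, by symbol, and are given as a description. Of 28 compared arabinogalactan protein genes, which encode heavily glycosylated wall and membrane proteins, 8 were lower in pifq and 1 was higher. AGP22 had 576 RPKM in Col-0 against 33.6 in pifq, AGP2 had 343 and 27.3, AGP13 had 232 and 18.9, and AGP4 had 1485 and 406. AGP17 was the higher one, at 11.7 and 25.3 RPKM. In the ein3 eil1 background AGP22 had 378 RPKM, against 25.9 with the PIF mutations added. Of 14 fasciclin-like relatives 4 were lower, among them FLA13 at 266 and 25.1 RPKM. Of 21 aquaporin genes, which encode water channels, 6 were lower and 1 was higher: PIP2;4 had 181 RPKM in Col-0 against 13.6 in pifq, PIP1;5 had 395 and 86.8, and PIP2;8 had 16.4 and 52.1. TIP2;3, another of the 6, is also in the root marker list, and the part of any root tissue left in the samples was not tested.

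Of 16 phosphate starvation genes compared 9 were higher, and the other 7 lay within the size rule. Of the 16, 3 had a value below Col-0, among them the PHT1;1 gene at 4.00 and 3.72 RPKM. PAP17, a purple acid phosphatase gene, had 25.8 RPKM in Col-0 against 97.0 in pifq, and SPX1, a phosphate sensor gene, had 29.0 and 91.7. SQD1 and SQD2, which make sulfolipid of plastid membranes, went from 80.0 to 167 and from 10.4 to 26.5 RPKM. Of 23 cyclin genes of the A, B and D classes 20 had a value above Col-0, with a median of 0.57, but only CYCA2;4 reached the size rule, at 1.46 and 4.27 RPKM. Of 45 genes named RPL or RPS for ribosomal proteins none reached it, 41 lay above Col-0 and the median was 0.40, next to -0.05 over all genes.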
